A study of Sus scrofa with 12 samples.

Results

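The uterus of replacer-fed piglets on postnatal day 2 was compared with the uterus at birth. The comparison covered 16523 of the 20390 gene entries of the expression table: every entry whose normalized value lay above 1, the lowest value in the table, in at least 4 of the 8 libraries concerned. The study measured RNA from whole uteri of crossbred Landrace, Yorkshire, Duroc and Hampshire gilts, 4 animals per group. The group called PND0 was taken no later than 1 h after birth. The group called PND2R received a commercial milk replacer for 48 h and was taken at 50 h of age. One more group, PND2N, nursed for the same 48 h, was also taken at 50 h, and is used here to estimate the spread between libraries and for one direct contrast with PND2R. PND2R and PND0 differ in age, in having been fed and in time since birth, and these cannot be told apart within this contrast. Litter, body weight and the composition of the replacer do not appear in the labels.

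In the pig, uterine glands and the inner stroma develop largely after birth: at birth the epithelium is a simple lining, and glands bud from it over the following weeks. Oestrogen receptor alpha appears in the young epithelium and stroma during this window, and hormones in colostrum and milk, relaxin among them, reach the tissue of nursing animals. Replacer-fed piglets receive nutrients in place of the sow's milk, and whether the replacer held such factors is not known here. At birth itself, newborns of many species also pass from a placental to a milk-based fuel supply, lose the glucocorticoid surge of late gestation, begin to breathe air and meet microbes.

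The labelled tissue was checked against 1 defining marker. HOXA10, the homeobox gene of the uterine part of the female tract, lay between 3468 and 8409 in PND0 and between 3861 and 6269 in PND2R, while the skeletal muscle regulator MYOD1 was at 1 in all 8 libraries. Summed normalized values were 26534074 to 29544130 per library over all 12, and 17.8% to 22.1% of entries were at 1. The number of reads behind these values is unknown, so no counting error can be given, and the spread between animals is the error used throughout. Libraries PND2R 2, PND2R 3 and PND2N 1 stood apart from the other 9: on principal component 1 (58.5% of the variance) they lay at -112.4, -114.0 and -123.7, against -29.5 to 79.9 for the others. On component 2 (12.9%), PND0 3 and PND0 4 stood apart at 68.3 and 65.7. The 11 measured epithelial markers summed to between 29739 and 124623 in PND0 but only between 93578 and 115230 in PND2R, and KRT8, a keratin of simple epithelia, read 49821, 51645, 14444 and 11099.6 in PND0 1 to 4. The gene counts and most list counts are therefore also given from a fit without PND2R 2, PND2R 3 and PND2N 1, called the 9-library fit, in which 2 PND2R libraries remain. A gene that passed with all libraries and is named with no adjusted p from the 9-library fit did not pass in it, and its change there is given where it differed by more than 1.5 times.

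**Figure D1:**
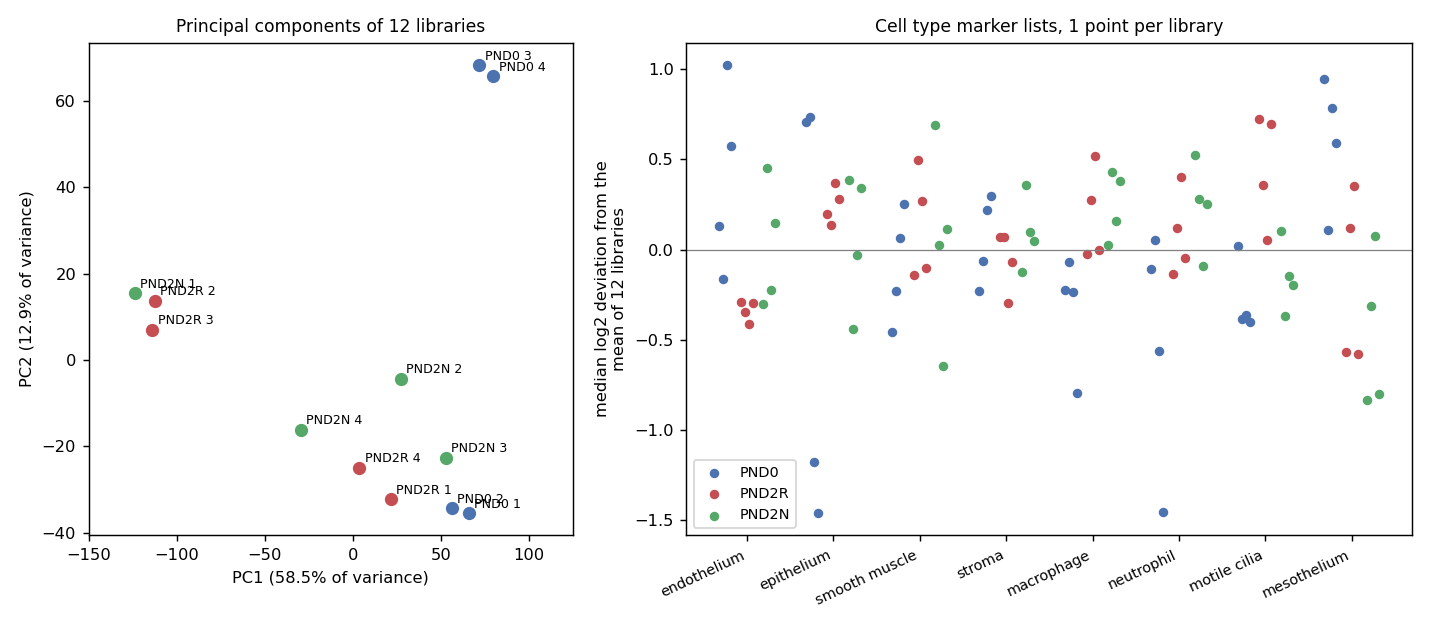
Left, each of the 12 libraries on principal components 1 and 2 of log2(value + 1), with the percentage of variance on each axis. Right, for 8 marker lists, the median log2 deviation of the list's genes from their 12-library mean, 1 point per library coloured by group. PND2R 2, PND2R 3 and PND2N 1 lie far to the left, PND0 3 and PND0 4 lie at the top, and the epithelial list is lowest in 2 of the 4 PND0 libraries.

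Between birth and day 2 on replacer, 2531 of the 16523 genes (15.3%) passed the limma test at an adjusted p under 0.05. Of these, 1299 (7.86%) rose and 1232 (7.46%) fell, 1573 (9.52%) changed at least 2-fold, and 6223 (37.7%) had an unadjusted p under 0.05. The median log2 change over all members was -0.05, and 47.3% of members had a positive change. Values of all 4 PND2R libraries lay above all 4 PND0 libraries for 2148 genes (13%) and below them for 2626 (15.9%). Fewer cells of a type and less RNA per cell cannot be told apart in whole tissue, here or in any result that follows. In the 9-library fit 251 genes (1.52%) passed, 105 higher (0.635%) and 146 lower (0.884%), and 232 (1.4%) passed in both fits. All 2531 genes kept their sign, with a median of 0.795 for the ratio of the 9-library change to the full change, and in 2475 of them PND2R 1 and PND2R 4 both lay outside the PND0 range on the side of the change. Both fits use the same PND0 libraries and PND2R 1 and 4, and 2437 of these genes had no overlap of the 4 and 4 libraries. Sign and range were thus largely fixed by the choice of genes and are no separate support. The count also depended on single libraries: it was 549 without PND2R 2, 571 without PND2R 3, 870 without PND0 4, 1356 without PND0 3, 1642 without PND0 1, and 4098 without PND2N 1. Across the 12 fits that leave out 1 library each, 481 genes (2.91%) passed every time, and 187 of them (1.13%) passed the 9-library fit as well. The gene lists that follow, and their members, were chosen with earlier results of these data known. A list's share beside that of all members is therefore a description and not a test.

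**Figure D2:**
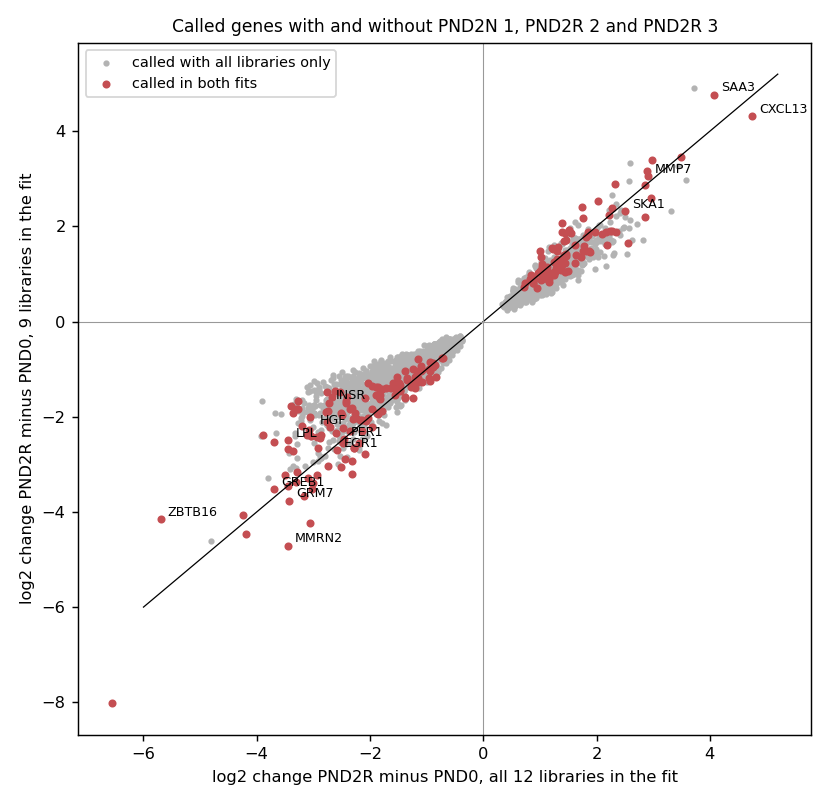
Each point is a gene that passed the test with all 12 libraries. The horizontal axis gives its log2 change with all libraries and the vertical axis its change in the 9-library fit, with the line of equality drawn; red points, 232 in all, passed in both. All 2531 points keep their sign, and most falls are shallower without the 3 libraries. The genes were chosen with libraries that both fits share.

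The chemokine gene CXCL13 and the acute phase gene SAA3 had the largest rises among the genes with a symbol that passed. Of 35 cytokine, chemokine and acute phase genes measured, 7 rose (20%, against 7.86% of all members) and none fell, 30 had a positive change, and the median change was 0.69 on the log2 scale, or 0.49 in the 9-library fit, where 2 rose. CXCL13 (chr8:76647448-76653495 in Sscrofa10.2 coordinates), the chemokine that draws B cells into lymphoid follicles, read 1, 4.90, 4.56 and 3.93 in PND0 1 to 4 and 81.96, 548, 41.8 and 84.9 in PND2R 1 to 4. Every PND2R value lay above the highest PND0 value, with PND2R 2 far above the other three. Its log2 change was 4.75 ± 0.86 (SE; adjusted p = 0.00961), and 4.32 in the 9-library fit (adjusted p = 0.0145).

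SAA3 (chr2:44216834-44220557), a serum amyloid A made in tissues during the acute phase response, read 5.75, 2.45, 1.52 and 1.96 at birth and 57.6, 60.3, 22.5 and 166 after 2 days of replacer. The groups did not overlap, and PND2R 4, one of the libraries near the main cluster, was highest. The change was 4.08 ± 0.61 (SE; adjusted p = 0.00602), and 4.77 in the 9-library fit (adjusted p = 0.0104). SAA2 rose by 2.06 (adjusted p = 0.0128). Serum amyloid genes are near-identical copies, so how reads were divided between them is uncertain. CCL8 and CCL2, monocyte-attracting chemokines encoded close together on chromosome 12, both rose. CCL8 read 13.6, 39.3, 15.8 and 5.38 in PND0 and 103, 71.004, 73.7 and 142 in PND2R, a rise of 2.58 ± 0.49 (SE; adjusted p = 0.0119, and 0.0501 with a change of 2.95 in the 9-library fit). CCL2 read 40.2 to 69.7 in PND0 and 126 to 387 in PND2R, without overlap (change 2.07 ± 0.38, adjusted p = 0.00988; 1.47 and 0.0738 in the 9-library fit). CXCL14 and CXCL12, chemokines expressed by epithelium and stroma, rose by 1.36 and 0.72 (adjusted p = 0.0194 and 0.0342).

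Interferon response, complement and antigen presentation genes were counted separately. Of 30 interferon response genes, 26 had a positive change, 6 rose (20%, against 7.86% of all members) and none fell, with a median of 0.53, or 0.64 in the 9-library fit, in which none passed the limma test and 12 had an unadjusted p under 0.05. BST2, the membrane tether that holds back budding viruses, read 150.2, 233, 129 and 53.03 in PND0 and 399, 855, 736 and 469 in PND2R. The groups did not overlap and PND0 4 was lowest (change 2.23 ± 0.47, SE; adjusted p = 0.0155; 1.79 and 0.111 in the 9-library fit). HERC5, the ligase that attaches ISG15, rose by 1.53 (adjusted p = 0.0285), OASL by 1.68 (0.0338), the ubiquitin ligase DTX3L by 1.23 (0.026) and the guanylate-binding protein GBP2 by 1.01 (0.0261). The changes of OASL and GBP2 were 0.98 and 0.65 in the 9-library fit. Among 24 complement genes 14 had a positive and 10 a negative change, and 4 rose (16.7%, against 7.86% of all members) and none fell (median 0.11). Their median was 0.14 in the 9-library fit, where none passed the limma test and 4 had an unadjusted p under 0.05. C1QB, a chain of the C1q recognition complex, read 1169.8 to 2404 in PND0 and 2492 to 3914 in PND2R. C1QC, another chain, read 848 to 2108 in PND0 and 2415 to 4074 in PND2R. Both rose without overlap (changes 1.02 ± 0.22 and 1.21 ± 0.26, adjusted p = 0.0164 and 0.016), with 0.81 and 0.97 in the 9-library fit (adjusted p = 0.136 and 0.13). SERPING1, the inhibitor of C1, rose by 1.11 (adjusted p = 0.0142), and C3, the central component, by 1.68 (0.0341), although C3 in PND0 1, at 1515, exceeded PND2R 1, at 1189, and its change was 0.87 in the 9-library fit (adjusted p = 0.234).

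Of 18 genes of antigen presentation 3 rose (16.7%, against 7.86% of all members) and none fell (median 0.39). None passed the limma test in the 9-library fit, where the median was 0.11 and 3 had an unadjusted p under 0.05. Those that rose were IFI30, a lysosomal thiol reductase (1215, 1297, 1010.1 and 795 in PND0 against 1909, 2503, 2693 and 2178 in PND2R; change 1.12 ± 0.19, SE; adjusted p = 0.00839), the protease CTSS (change 0.97, adjusted p = 0.0468) and the class I gene SLA-8 (0.88, 0.035). Swine class I genes are near-identical and polymorphic, so the SLA-8 value is uncertain; it was 0.55 in the 9-library fit. Of 24 genes of Toll-like receptor and NF-kB signalling none rose and 1 fell (4.17%, against 7.46% of all members), RELA, the p65 subunit (-1.67, adjusted p = 0.0178). Macrophage markers stood beside these changes: of 12 measured, 3 rose (C1QB, C1QC and LAPTM5, or 25% against 7.86% of all members), and the summed level of the 13 in the table was 5690 to 10815 in PND0 and 10382 to 14741 in PND2R. The median change of the 12 was 0.61, or 0.40 in the 9-library fit, in which none passed the limma test. CSF1R, a defining macrophage receptor, did not pass the test and had a negative change (-0.69, adjusted p = 0.055), and CD14 was at most 9.79 in any library. Of 5 neutrophil markers 1 rose (20%, against 7.86% of all members), S100A12 (2.58, adjusted p = 0.0448). S100A12 overlapped between the groups, with PND0 2 at 18.5 above PND2R 2 at 11.5, and passed in 3 of the 12 fits without 1 library. None of the 9 T and NK cell or 7 B cell markers passed. The part of leukocyte number in the chemokine and complement changes was not tested.

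**Figure D3:**
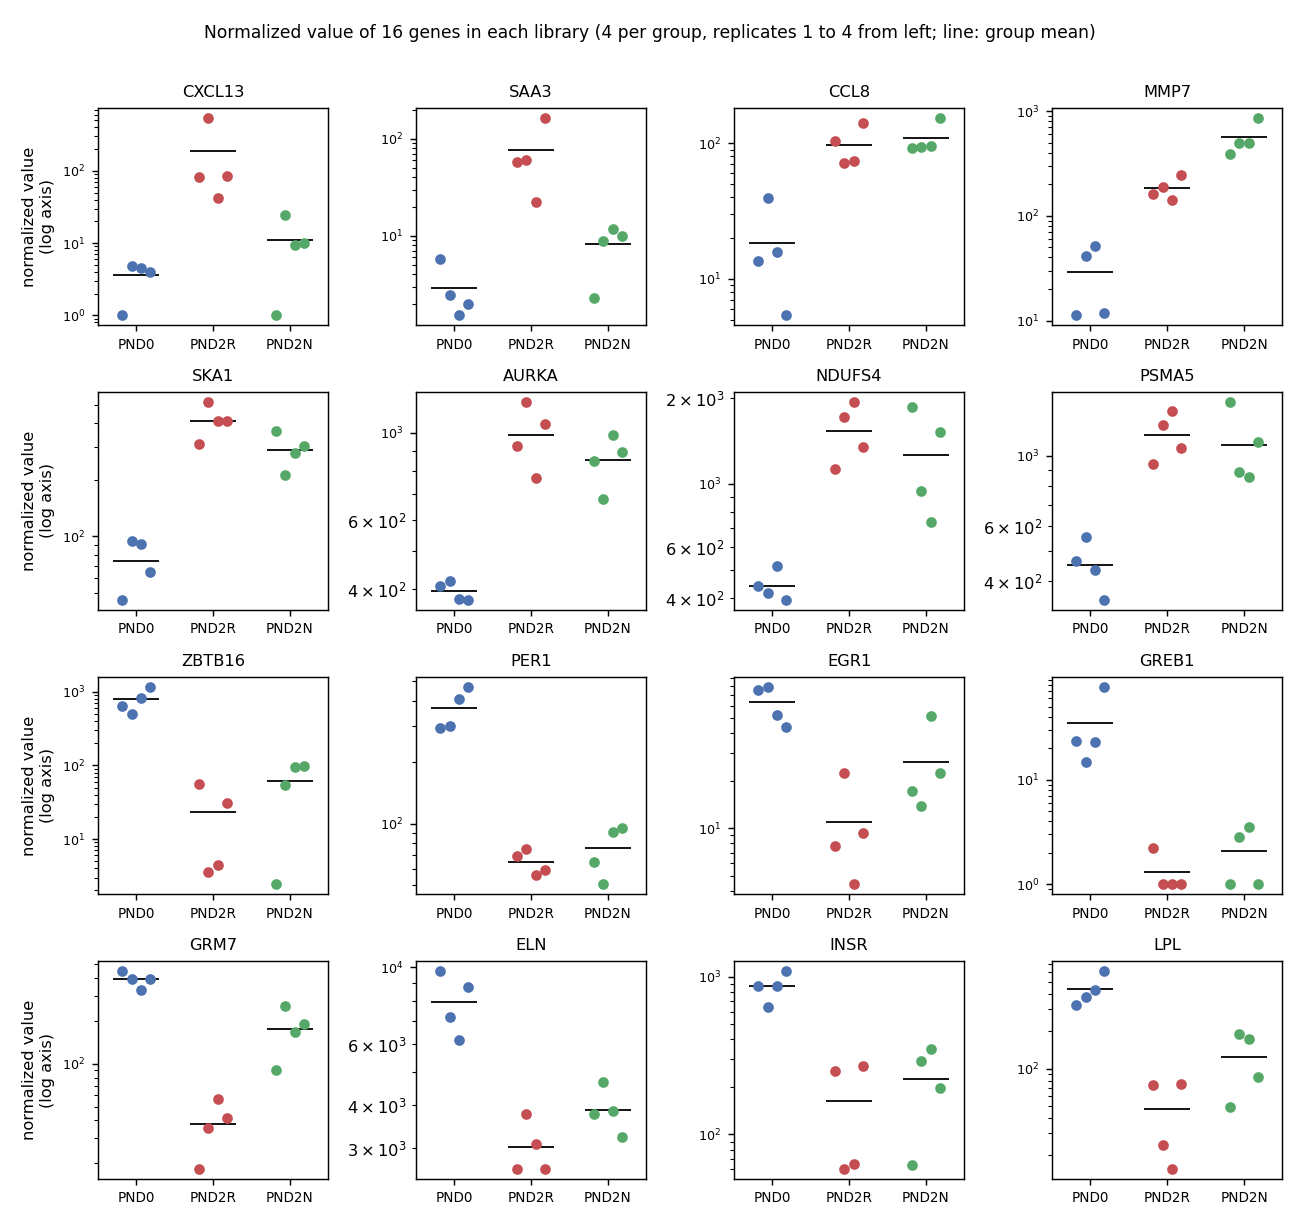
Normalized value of 16 genes in each library on log axes, 1 point per animal, with replicates 1 to 4 from left to right and a line at each group's mean. In the upper panels (CXCL13 to PSMA5) every PND2R point lies above every PND0 point, and in the lower panels (ZBTB16 to LPL) every PND2R point lies below every PND0 point. PND2N is drawn for comparison.

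The list with the highest share of genes that rose, among the 32 gene lists, was that of cell division. Of 37 cell cycle and mitosis genes, 30 had a positive change, 16 rose (43.2%, against 7.86% of all members) and none fell, with a median change of 0.71. In the 9-library fit the median was 0.97, 36 of the 37 were positive and 7 rose. SKA1 (chr1:103816011-103850373), which links kinetochores to microtubules, read 45.99, 94.1, 91.2 and 64.5 in PND0 and 309.8, 519, 414 and 413 in PND2R. The lowest PND2R library lay well above the highest PND0 library. The change was 2.50 ± 0.29 (SE; adjusted p = 0.00391), and 2.32 in the 9-library fit (adjusted p = 0.0272). AURKA, the kinase of spindle poles, read 407, 419.6, 377 and 375 in PND0 and 924, 1199, 769 and 1056 in PND2R. Its PND0 values were tight and lay below all PND2R values (change 1.30 ± 0.18, SE; adjusted p = 0.00465; 1.32 and 0.0307 in the 9-library fit).

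PTTG1, the securin that guards sister chromatid separation, read 406 to 629 in PND0 and 1156 to 1382 in PND2R (change 1.43 ± 0.18, adjusted p = 0.00391; 1.39 and 0.0331 in the 9-library fit). UBE2C, the ubiquitin-conjugating enzyme of the anaphase-promoting complex, read 1564 to 1761 in PND0 and 3118 to 4046 in PND2R (change 1.03 ± 0.15, adjusted p = 0.00487; 0.96 and 0.0386). The groups overlapped for neither gene. Others that rose were the cyclin CCNB2 (1.46, adjusted p = 0.00724), the centromeric histone CENPA (1.03, 0.0233), the kinetochore subunit SPC25 (1.03, 0.0149) and FOXM1, the transcription factor of the mitotic programme (1.04, 0.0134). CCNB2 and CENPA also passed in the 9-library fit, with changes of 1.72 and 1.36. Of 33 DNA replication and repair genes 7 rose (21.2%, against 7.86% of all members) and none fell, with a median of 0.36. Their median was 0.47 in the 9-library fit, where none passed the limma test and 13 had an unadjusted p under 0.05. RPA2, a subunit of the single-strand binding complex, read 1627, 1998, 2271 and 1674 in PND0 and 3310.1, 3321, 3140.3 and 3172 in PND2R. The PND2R values were nearly level and all above PND0 (change 0.79 ± 0.14, SE; adjusted p = 0.00883; 0.0668 in the 9-library fit). RFC2 of the clamp loader, PRIM1 of primase and the licensing factor CDT1 rose by 0.93, 0.89 and 1.19 (adjusted p = 0.0202, 0.0282 and 0.0337), and the CDT1 change was 0.73 in the 9-library fit.

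Inhibitors of cyclin-dependent kinases were measured beside these. Of 13 genes 2 rose (15.4%, against 7.86% of all members) and none fell. The median was -0.20, or -0.019 in the 9-library fit, where 1 rose. CDKN2C, which encodes the CDK4 and CDK6 inhibitor p18, read 648, 722, 688 and 628 in PND0 and 1544, 2088, 1584 and 1621 in PND2R. It lay higher in all PND2R libraries, with a change of 1.34 ± 0.17 (SE; adjusted p = 0.00391), and 1.24 (adjusted p = 0.0321) in the 9-library fit. CDKN2D, which encodes p19, rose by 1.08 (adjusted p = 0.0245; 0.76 and 0.176 in the 9-library fit). RB1, the retinoblastoma protein gene, did not pass (change -0.74, adjusted p = 0.0653).

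Subunits of the respiratory chain and ATP synthase are encoded in part by nuclear genes. Of 46 nuclear genes measured, 41 had a positive change, 16 rose (34.8%, against 7.86%) and none fell. Their median change was 0.66, or 0.45 in the 9-library fit, in which 1 rose. NDUFS4 (chr16:35710710-35730842), an accessory subunit of complex I, read 440.1, 418, 516 and 394 in PND0 and 1129.8, 1714, 1929 and 1348 in PND2R. PND2R 2 and 3 were highest, and PND2R 1 and 4 also lay above all PND0 libraries (change 1.77 ± 0.28, SE; adjusted p = 0.00696; 1.49 and 0.0402 in the 9-library fit). The ATP synthase subunits ATP5J, ATP5O and ATP5H rose by 1.28, 0.99 and 1.04 (adjusted p = 0.0134, 0.0124 and 0.021), NDUFV2 of complex I by 0.99 (0.012) and UQCRB of complex III by 1.01 (0.027).

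Fatty acid oxidation, the route by which milk fat is burnt, showed 6 of 34 genes rising (17.6%, against 7.86% of all members) and none falling (median 0.29, 0.17 in the 9-library fit, where 2 rose). HADHA, the alpha subunit of the mitochondrial trifunctional protein, read 6216, 6243, 4479.6 and 6954 in PND0 and 12069, 7933, 11586 and 11217 in PND2R. PND2R 2 was the lowest of its group and still above all PND0 libraries (change 0.84 ± 0.17, SE; adjusted p = 0.0133; 0.98 and 0.0391 in the 9-library fit). SLC25A20, the carrier that brings acylcarnitines into mitochondria, read 935 to 1299 in PND0 and 1724 to 2222 in PND2R (change 0.92 ± 0.16, adjusted p = 0.00865; 0.76 and 0.0834). BBOX1, the last enzyme of carnitine synthesis, was near the lowest value of the table at birth (4.60, 1, 1.52 and 1) and read 13.8, 5.31, 8.80 and 16.2 on day 2 (change 2.03 ± 0.45, adjusted p = 0.0177; 2.54 and 0.0466 in the 9-library fit). ECI2, an enoyl-CoA isomerase, rose by 1.63 (adjusted p = 0.0243; change 1.06 in the 9-library fit). LPL (chr14:4507309-4537355), the lipase that releases fatty acids from circulating lipoproteins, went the other way: it read 325, 380.3, 433 and 610.4 in PND0 and 73.7, 24.1, 15.5 and 75.4 in PND2R. It was lower in every PND2R library, most of all in PND2R 2 and 3 (change -3.44 ± 0.57, SE; adjusted p = 0.00724; -2.50 and 0.0272 in the 9-library fit).

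Of 42 glycolysis and glycogen genes 3 rose and 3 fell (7.14% each, near the backgrounds of 7.86% and 7.46%), with a median of -0.21, which was 0.012 without PND0 2. None passed the limma test in the 9-library fit, where the median was -0.14 and 6 had an unadjusted p under 0.05. SLC16A3, the lactate exporter MCT4, read 811 to 2381 in PND0 and 354 to 523 in PND2R (change -1.40 ± 0.33, adjusted p = 0.0224; -1.36 and 0.0989 in the 9-library fit), and PPP1R3G, a glycogen-targeting phosphatase subunit, 23.1 to 48.5 in PND0 and 1 to 11.96 in PND2R (-2.998 ± 0.57, adjusted p = 0.0118; -1.79 in the 9-library fit). The muscle glycogen phosphorylase PYGM and the pyruvate dehydrogenase kinase PDK3 rose by 1.52 and 0.64 (adjusted p = 0.0371 and 0.0342); the PYGM change was 0.99 in the 9-library fit. In sterol and fatty acid synthesis 3 of 34 genes rose (8.82%, near the background of 7.86%): the sterol isomerase EBP (1.01, adjusted p = 0.0244), the cholesterol carrier STARD4 (1.08, 0.0379; change 0.69 in the 9-library fit) and HSD17B7 (0.72, 0.0483). None of the 34 passed the limma test in the 9-library fit, with 6 at an unadjusted p under 0.05.

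Proteasome subunits were among the most uniform groups in direction. Of 29, 27 had a positive change, 11 rose (37.9%, against 7.86% of all members) and none fell (median 0.56, 0.40 in the 9-library fit, where 2 rose). PSMA5, an alpha ring subunit, read 464, 551, 435 and 349 in PND0 and 941, 1255, 1389.7 and 1059 in PND2R. The groups did not overlap (change 1.37 ± 0.22, SE; adjusted p = 0.00701; 1.17 and 0.0433 in the 9-library fit). PSMA2, of the same ring, rose by 1.08 ± 0.19 (adjusted p = 0.00806; 0.91 and 0.0417). PSME1 and PSME2, the interferon-inducible proteasome activators, rose by 0.84 and 1.13 (adjusted p = 0.03 and 0.0321). Among 30 antioxidant genes 5 rose (16.7%, against 7.86%) and none fell (median 0.37). Their median was 0.30 in the 9-library fit, where none passed the limma test and 6 had an unadjusted p under 0.05. Those that rose included thioredoxin, TXN, which read 1089 to 1679 in PND0 and 2567 to 3498 in PND2R (1.03 ± 0.20, adjusted p = 0.0126; 0.90 and 0.0675 in the 9-library fit), glutathione reductase, GSR (1.51, 0.0257), and the peroxidase GPX4 (1.04, 0.0413; change 0.63 in the 9-library fit). Of 31 chaperone and unfolded protein response genes 4 rose (12.9%, against 7.86%) and none fell, HSPE1, the mitochondrial cochaperonin, by 0.99 (adjusted p = 0.016). Their median was 0.09, and went from 0.003 without PND0 4 and 0.045 without PND2R 1 to 0.19 without PND0 2. In the 9-library fit it was 0.10 and none passed the limma test, with 5 at an unadjusted p under 0.05. Of 56 cytosolic ribosomal protein genes none passed the limma test, although 49 had a positive change (median 0.29) and 13 had an unadjusted p under 0.05. RPL32 had the smallest p of them (change 0.69, adjusted p = 0.0534). Ribosomal protein genes have many near-identical copies, so their values are uncertain.

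The hormone-induced gene ZBTB16 had the largest fall among the genes with a symbol that passed. Of 25 glucocorticoid response genes measured, 17 had a negative change, 6 fell (24%, against 7.46% of all members) and 1 rose (4%, against 7.86%). The median was -0.57, or -0.40 in the 9-library fit, where 2 fell. ZBTB16 (chr9:47332775-47337590), a zinc finger repressor strongly induced by steroid hormones, read 646, 500.2, 824 and 1176 in PND0 and 55.4, 3.54, 4.40 and 30.4 in PND2R. Even the highest PND2R library lay far below the lowest PND0 library, and PND2R 2 and 3 were close to the table's lowest value. Its change of -5.70 ± 1.07 (SE; adjusted p = 0.0113) became -4.15 in the 9-library fit (adjusted p = 0.00726). KLF9, another hormone-induced zinc finger gene, was low at birth (8.15, 4.90, 12.9 and 6.87) and at the table's lowest value in all 4 PND2R libraries (adjusted p = 0.00701), so no fold is given. KLF9 entered the comparison only through the PND0 libraries, where it is high. Its p-value is therefore no support, although it counts among the 6 that fell. The mineralocorticoid receptor gene NR3C2 fell by 2.91 (adjusted p = 0.0461; change -1.43 in the 9-library fit). The glucocorticoid receptor gene NR3C1 did not pass (change -0.61, adjusted p = 0.0882), nor did the classical targets FKBP5 (-2.98, 0.0767) and TSC22D3 (-0.26, 0.199). SLC19A3, a thiamine transporter, was the member that rose (1.14, adjusted p = 0.0365).

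The clock genes PER1, CRY2 and CRY1, which form the repressing arm of the circadian loop, were lower on day 2. Of 16 clock genes 3 fell (18.8%, against 7.46% of all members) and 1 rose (6.25%, against 7.86%), with a median of -0.17, or -0.16 in the 9-library fit, where 2 fell. PER1 (chr12:56193786-56202988), itself a glucocorticoid target, read 294, 301, 407 and 469.6 in PND0 and 69.5, 75.3, 56.05 and 59.1 in PND2R. Both groups were tight and did not overlap (change -2.46 ± 0.29, SE; adjusted p = 0.00391; -2.47 and 0.0243 in the 9-library fit). CRY2 read 1392 to 1916 in PND0 and 848 to 1115 in PND2R (change -0.88 ± 0.16, adjusted p = 0.00937; -0.95 and 0.0466 in the 9-library fit), and CRY1 fell by 0.95 (adjusted p = 0.0398; change -0.52 and 0.323 in the 9-library fit). DBP, an output gene of the clock, rose by 1.20 (adjusted p = 0.0372; 0.59 and 0.187 in the 9-library fit), with PND2R 2 and 3 at 2512 and 2505 against 961 and 1201 in PND2R 1 and 4. The hour of day at which animals were taken does not appear in the labels, and its part in these changes was not tested.

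Immediate early transcription factors are switched on within minutes of stimulation or stress. Of 24, 20 had a negative change, 6 fell (25%, against 7.46% of all members) and none rose, with a median of -0.76 (-0.74 in the 9-library fit, where 2 fell). EGR1 read 75.9, 79.4, 52.3 and 44.2 in PND0 and 7.75, 22.5, 4.40 and 9.33 in PND2R. PND2R 2 was highest of its group and still below PND0 4 (change -2.59 ± 0.51, SE; adjusted p = 0.0128; -2.71 and 0.0406 in the 9-library fit). KLF10, a factor induced by TGF beta, read 5515 to 7821 in PND0 and 2277 to 3531 in PND2R (-1.09 ± 0.23, adjusted p = 0.0138; -0.94 and 0.0382), and KLF6 fell by 1.31 (adjusted p = 0.0172). JUN and FOS, the partners of AP-1, fell (changes -1.13 and -1.14; adjusted p = 0.0389 and 0.0496).

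Of 31 hypoxia response genes 6 fell (19.4%, against 7.46% of all members) and 1 rose (3.23%, against 7.86%), and 23 had a negative change (median -0.26, -0.30 in the 9-library fit, where 1 fell). EPAS1, the hypoxia-inducible factor HIF2A, fell by 2.24 (adjusted p = 0.0391; change -1.22 in the 9-library fit), and NDRG1, a stress-induced gene, read 1202 to 2107 in PND0 and 187 to 636 in PND2R (-2.03 ± 0.53, adjusted p = 0.0285; -1.29 and 0.045 in the 9-library fit). EGLN3, a prolyl hydroxylase that marks the factors for breakdown, fell by 0.76 (adjusted p = 0.0305). The collagen prolyl hydroxylase P4HA1 read 4057 to 5361 in PND0 and 2092 to 2318 in PND2R (-1.06 ± 0.21, adjusted p = 0.0125; 0.0745 in the 9-library fit). FAM162A, a mitochondrial protein of the list, rose by 1.31 (adjusted p = 0.017).

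In the insulin and insulin-like growth factor system, whose receptors signal through IRS and PI3 kinase proteins, 7 of 26 genes fell (26.9%, against 7.46%) and none rose (median -0.37, -0.53 in the 9-library fit, where 2 fell). INSR (chr2:59938630-60003872), the insulin receptor, read 874, 642, 876 and 1083 in PND0 and 251, 60.4, 64.7 and 272 in PND2R. PND2R 2 and 3 were lowest, and PND2R 1 and 4 also lay below all PND0 libraries (change -2.73 ± 0.60, SE; adjusted p = 0.0175; -1.71 and 0.0331 in the 9-library fit). IGF1R, the receptor for IGF1, read 2419 to 3524 in PND0 and 922 to 1975 in PND2R (-0.997 ± 0.24, adjusted p = 0.022; -0.60 and 0.117), and IGF2R, which clears IGF2, 6917 to 8759 in PND0 and 3709 to 5396 in PND2R (-0.84 ± 0.17, adjusted p = 0.0138; -0.60 and 0.0761). IGFBP4, a binding protein that holds IGFs from their receptor, read 3126, 3958, 3182 and 3946 in PND0 and 1789, 2327, 1684 and 1643 in PND2R. The groups did not overlap (change -0.94 ± 0.18, SE; adjusted p = 0.0124; -1.04 and 0.0483 in the 9-library fit). Downstream, IRS1 and PIK3R1 fell (changes -1.05 and -2.03; adjusted p = 0.0298 and 0.0259; -0.66 and -1.24 in the 9-library fit). The ligand gene IGF1 did not pass (change -0.39, adjusted p = 0.548).

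The panel of hormone receptors and uterine patterning genes was divided. Of 38 genes 3 rose and 3 fell (7.89% each, close to the background), with a median of -0.06 (-0.04 in the 9-library fit, where 1 rose and 1 fell). ESR1 (chr1:15697511-15889475), oestrogen receptor alpha, read 1035, 1574, 3184 and 3033 in PND0 and 5978, 3910.04, 4235 and 5425 in PND2R. All PND2R libraries lay above all PND0 libraries, and PND2R 1 and 4 were highest (change 1.27 ± 0.33, SE; adjusted p = 0.0286; 1.52 and 0.0969 in the 9-library fit). Within PND0, ESR1 was lower in PND0 1 and 2, the libraries with high epithelial markers, than in PND0 3 and 4. GREB1 (chr3:132233059-132262503), an oestrogen-induced cofactor of that receptor, read 23.7, 14.7, 22.9 and 77.5 in PND0 and was at the table's lowest value in PND2R 2, 3 and 4 and at 2.22 in PND2R 1. Its fitted change was -3.70 ± 0.49 (SE; adjusted p = 0.00391; -3.53 and 0.037 in the 9-library fit) and depends on the added constant of 1. PGR, the progesterone receptor, read 299, 408, 278 and 256 in PND0 and 146, 57.5, 37.4 and 74.4 in PND2R, without overlap, and did not pass the test (change -2.12, adjusted p = 0.0542).

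The receptors for milk-borne relaxin and prolactin were not among the genes that passed. RXFP1, the relaxin receptor, read 632, 1425, 859 and 1075 in PND0 and 1849, 1608, 1315 and 1483 in PND2R (change 0.70, adjusted p = 0.0905), and PRLR, the prolactin receptor, 767, 663, 1451 and 1732 in PND0 and 685, 1217, 1089 and 760.2 in PND2R (change -0.22, adjusted p = 0.627). Both genes overlapped between the groups. MMP7 (chr9:38104906-38115301), matrilysin, a protease of glandular epithelia, read 11.2, 41.004, 51.4 and 11.8 in PND0 and 162, 189, 141 and 247 in PND2R. The groups did not overlap (change 2.91 ± 0.49, SE; adjusted p = 0.00756; 3.05 and 0.0465 in the 9-library fit). It was the member of 25 metalloproteinase and inhibitor genes that rose (4%, against 7.86% of all members), and none fell (against 7.46%). Both shares lay below those of all members. The median of the list was -0.18, or -0.35 in the 9-library fit. HGF, the stromal growth factor for epithelia, read 898, 536, 3741 and 2871 in PND0 and 365, 94.9, 121 and 284 in PND2R. PND0 3 and 4, the libraries with low epithelial markers, were highest (change -3.01 ± 0.75, SE; adjusted p = 0.0244; -2.22 and 0.132 in the 9-library fit).

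FOXA2, the transcription factor of uterine glands, read 89.4, 59.98, 1.52 and 22.6 in PND0 and 264, 68.2, 69.9 and 239 in PND2R, overlapped and did not pass (change 2.48, adjusted p = 0.0854). WNT7A, an epithelial signal required for uterine patterning, read 7545, 5954, 869.8 and 1444 in PND0 and 6309, 5359.7, 6308 and 6218 in PND2R (change 1.14, adjusted p = 0.162). Its low PND0 values were again in PND0 3 and 4. WNT4, a stromal signal of the female tract, read 99.02 to 200.5 in PND0 and 277 to 529.5 in PND2R (1.27 ± 0.35, adjusted p = 0.0323; 0.98 and 0.192 in the 9-library fit).

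Across the 37 WNT pathway genes measured, 4 rose and 5 fell (10.8% and 13.5%, against 7.86% and 7.46% of all members), and 28 had a negative change (median -0.44, -0.28 in the 9-library fit, where 2 fell). Besides WNT4, the ligand WNT9A, the receptor FZD2 and the nuclear effector LEF1 rose by 1.40, 1.10 and 0.83 (adjusted p = 0.036, 0.0434 and 0.0246), and the FZD2 change was 0.59 in the 9-library fit. AXIN1, the scaffold of the complex that destroys beta-catenin, read 957, 962, 1098 and 1078 in PND0 and 474, 334, 229 and 442 in PND2R. The groups did not overlap (change -1.52 ± 0.25, SE; adjusted p = 0.00724; -1.16 and 0.0332 in the 9-library fit). The ligand WNT16 read 151 to 186 in PND0 and 51.3 to 107 in PND2R (-1.23 ± 0.31, adjusted p = 0.0244; -1.60 and 0.0366). FZD4, a receptor, the antagonist DKK2 and the agonist RSPO3 fell (changes -2.42, -0.90 and -1.61; adjusted p = 0.017, 0.025 and 0.0256).

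Of 18 Hedgehog genes 2 fell (11.1%, against 7.46% of all members) and none rose, with a median of -0.54. None passed the limma test in the 9-library fit, where the median was -0.47 and 8 had an unadjusted p under 0.05. The genes that fell were GLI3, the transcription factor that represses targets in the absence of signal (314 to 556 in PND0 and 174 to 215 in PND2R; change -1.13 ± 0.24, adjusted p = 0.0163), and KIF7, a ciliary regulator of the GLI proteins (-1.96, 0.0307; change -1.03 in the 9-library fit). Of 20 Notch genes 3 fell (15%, against 7.46%) and none rose, with a median of -0.21. Their median was 0.08 in the 9-library fit, where none passed the limma test and 2 had an unadjusted p under 0.05. Those that fell were the ligand JAG2 (-1.57, adjusted p = 0.0134; change -1.004 in the 9-library fit), the endothelial receptor NOTCH4 (-0.99, 0.0318) and the target HEYL (-2.19, 0.0495; -1.09 and 0.235 in the 9-library fit). Of 38 TGF beta, activin and BMP genes 2 rose and 5 fell (5.26% and 13.2%, against 7.86% and 7.46%), with a median of -0.09, or -0.04 in the 9-library fit, where 1 fell. LTBP1, which stores latent TGF beta in the matrix, read 4094, 5234, 7934 and 8477 in PND0 and 1391, 242, 465 and 1288 in PND2R. It was lower in every PND2R library (change -3.20 ± 0.71, SE; adjusted p = 0.0179; -2.20 and 0.0417 in the 9-library fit). LTBP3 and BMP6 fell (changes -0.59 and -2.07; adjusted p = 0.0142 and 0.0192), and GDF10 and INHBA, the activin A subunit, rose by 1.06 and 0.59 (0.0246 and 0.025).

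Fibrillar matrix and basement membrane genes were counted as separate lists. Of 43 genes of the fibrillar matrix and its crosslinking 28 had a negative change and 8 fell (18.6%, against 7.46% of all members), with a median of -0.29, or -0.28 in the 9-library fit, where 2 fell. Of the 43, 1 rose (2.33%, against 7.86% of all members), the tenascin TNXB (1.18, adjusted p = 0.0236, change 0.68 in the 9-library fit). ELN (chr3:11139720-11197135), elastin, read 9752, 7208, 6163 and 8754 in PND0 and 2616, 3775, 3095 and 2620.1 in PND2R. All PND2R libraries lay below all PND0 libraries, PND2R 1 and 4 lowest (change -1.39 ± 0.18, SE; adjusted p = 0.00391; -1.58 and 0.0192 in the 9-library fit). FBLN2, a fibulin that binds elastic fibres, read 3529 to 4032 in PND0 and 1560.2 to 2569 in PND2R (-0.95 ± 0.17, adjusted p = 0.0102; -1.24 and 0.0133), and FBLN1 fell by 1.12 (adjusted p = 0.0155; -0.91 and 0.0634). COL5A1, SPARC and THBS1 fell (changes -1.30, -0.50 and -1.81; adjusted p = 0.0156, 0.0186 and 0.0354), and the THBS1 change was -1.20 in the 9-library fit. COL3A1 and COL1A2, the chains of the abundant interstitial collagens, did not pass (changes -0.44 and -2.13, adjusted p = 0.24 and 0.0534).

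Of 20 basement membrane genes 4 fell (20%, against 7.46% of all members) and none rose, with 16 negative changes and a median of -1.32, the lowest of the 32 lists, which became -0.38 in the 9-library fit, in which none passed the limma test and 6 had an unadjusted p under 0.05. COL4A1 and COL4A2, the paired chains of type IV collagen, read 14030.1, 20126, 13321 and 19107 and 4112, 5560.3, 4095 and 5968 in PND0. In PND2R they read 8728, 7466, 3553 and 7775 and 2380.04, 971, 763 and 2088. PND2R 3 was lowest for both genes, and neither gene overlapped between the groups (changes -1.33 ± 0.32 and -1.81 ± 0.42, adjusted p = 0.0232 and 0.0203; -0.99 and -1.12, adjusted p = 0.109 and 0.0966, in the 9-library fit). The crosslinker NID2 and COL4A3 fell (changes -1.20 and -2.65; adjusted p = 0.0465 and 0.0387), and the COL4A3 change was -1.65 in the 9-library fit (adjusted p = 0.273).

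Of 11 endothelial markers measured 3 fell (27.3%, against 7.46% of all members) and none rose (median -0.65, -0.64 in the 9-library fit, where 2 fell, TIE1 and VWF), and their summed level was 12855 to 21110 in PND0 and 9720 to 10052 in PND2R, without overlap. TIE1, an endothelial receptor kinase, read 1847, 2035, 2729 and 3217 in PND0 and 794, 620.5, 514 and 839 in PND2R. It was lower in every PND2R library (change -1.82 ± 0.25, SE; adjusted p = 0.00431; -1.55 and 0.0315 in the 9-library fit). FLT1 and PECAM1 fell with all libraries (changes -1.67 and -0.77, adjusted p = 0.025 and 0.0444) but not in the 9-library fit (adjusted p = 0.137 and 0.206). VWF did not pass with all libraries (change -3.39, adjusted p = 0.0662) but passed in the 9-library fit (-1.86 and 0.0352). KDR, the main VEGF receptor, and CLDN5 did not pass (changes 0.08 and -0.28, adjusted p = 0.78 and 0.398). Of 4 lymphatic markers 1 fell (25%, against 7.46% of all members), FLT4 (-0.89, adjusted p = 0.0132, with -1.002 and 0.0656 in the 9-library fit). The part of vessel content in the fall of the basement membrane genes, NOTCH4 and MMRN2 was not tested.

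The remaining genes with the largest changes came from many processes. SYCP3, a protein of the meiotic chromosome axis, read 2.21, 1.13, 1 and 3.73 in PND0 and 22.6, 44.9, 58.3 and 19.8 in PND2R (change 3.59 ± 0.61, SE; adjusted p = 0.00787; 2.97 and 0.0504 in the 9-library fit). SLC39A12, a zinc importer, read 1.24, 1.22, 8.35 and 1 in PND0 and 119, 12.4, 23.1 and 71.5 in PND2R (3.72 ± 0.98, adjusted p = 0.0286; 4.91 and 0.0501). Neither gene overlapped between the groups, and both were near the table's lowest value at birth. PEBP4, a phosphatidylethanolamine-binding protein, read 23.6 to 66.1 in PND0 and 156 to 548 in PND2R (2.72, adjusted p = 0.0109). The antimicrobial peptide gene NPG4, a protegrin with near-identical copies, rose by 2.50, the calcium-binding S100A5 by 2.48, the pancreatic polypeptide gene PPY by 2.47 and the lens crystallin gene CRYGS by 2.42 (adjusted p = 0.0309, 0.0246, 0.0343 and 0.0236). The last 4 did not pass in the 9-library fit, where their changes were 2.19, 1.99, 1.97 and 1.81.

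Among the largest falls, GRM7 (chr13:68241009-68755334), a metabotropic glutamate receptor, read 447, 396, 331 and 396 in PND0 and 18.3, 35.3, 56.2 and 41.5 in PND2R. PND2R 1 was lowest, and no PND2R library came near PND0 (change -3.44 ± 0.38, SE; adjusted p = 0.00391; -3.77 and 0.0049 in the 9-library fit). PLA2G4E, a cytosolic phospholipase, read 109, 14.7, 267 and 325 in PND0 and 3.32, 1.77, 3.30 and 3.82 in PND2R (-4.80 ± 0.86, adjusted p = 0.00948; -4.60 and 0.0678). Its PND0 values were the more variable, with PND0 2 lowest. CERS2, listed under its older symbol LASS2 and making very long chain ceramides, read 54.7 to 83.5 in PND0 and 2.20 to 11.4 in PND2R (-3.45 ± 0.59, adjusted p = 0.00806; -2.68 and 0.0272). MMRN2, an endothelial matrix protein, read 42.8 to 88.99 in PND0 and 1 to 14.8 in PND2R (-3.45 ± 0.77, adjusted p = 0.0181; -4.71 and 0.0307). ADAMTSL3, a matrix protein, and SEMA3E, a guidance cue for axons and vessels, fell (changes -3.69 and -3.93; adjusted p = 0.0119 and 0.0184; 0.0292 and 0.0745 in the 9-library fit). Also lower were the glutamate receptor GRIK3 (-3.66, adjusted p = 0.0243), the potassium chloride cotransporter SLC12A4 (-3.56, 0.0256), DISP2 of the dispatched family (-3.44, 0.0155), the piRNA pathway gene PIWIL2 (-3.42, 0.0156) and the lipid transfer gene PITPNM3 (-3.40, 0.0379). SLC12A4 and PITPNM3 were lowest in PND2R 2 and 3, and in the 9-library fit their changes were -1.95 and -1.77 (adjusted p = 0.0664 and 0.045). The changes of GRIK3 and SEMA3E in that fit were -2.34 and -2.41.

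Genes of motile cilia included 3 that rose of 10 measured (30%, against 7.86% of all members), and none fell. Their median was 0.10, or 0.93 in the 9-library fit, in which 2 rose. SPAG6, of the central pair of the axoneme, read 3.29, 1, 6.33 and 1.85 in PND0 and 40.2, 29.5, 14.1 and 35.5 in PND2R. All PND2R libraries were higher, PND2R 3 least (change 2.98 ± 0.60, SE; adjusted p = 0.0133; 3.41 and 0.037 in the 9-library fit). DNAI1, an outer arm dynein chain, was at the table's lowest value in all 4 PND0 libraries and read 6.66, 4.44, 2.40 and 6.44 in PND2R (adjusted p = 0.0183, and 0.037 in the 9-library fit). DNAI1 entered the comparison only through the PND2R libraries, where it is high. Its p-values are therefore no support, although it counts among the 3 that rose. FOXJ1, the transcription factor that switches on the motile cilia programme, read 149 to 347 in PND0 and 485 to 1383 in PND2R (1.77 ± 0.49, adjusted p = 0.0334; 1.23 and 0.16 in the 9-library fit). The dynein heavy chain DNAH5 was at 3.54 and 4.40 in PND2R 2 and 3 but at 109 and 52.6 in PND2R 1 and 4, and did not pass. Of 11 epithelial markers 1 rose (9.09%, near the background of 7.86%), the membrane protease ST14 (1.08, adjusted p = 0.027, and 0.182 in the 9-library fit), and the low values of that list in PND0 3 and 4 stand beside the WNT7A and FOXA2 values. Their part in those values was not tested. The summed level of the cilia genes was 4822 and 6093 in PND0 3 and 4 against 3045 and 2712 in PND0 1 and 2. A single gene, CCDC39, made up most of the sum in PND0 3 and 4, at 4008 and 5189 (1467 and 1282 in PND0 1 and 2). The median log2 deviation of the list from its 12-library mean was 0.02, -0.38, -0.36 and -0.40 in PND0 1 to 4. Of 11 smooth muscle markers 1 fell (9.09%, near the background of 7.46%), CALD1 (-0.66, adjusted p = 0.0493), and none of 9 stromal markers passed at an adjusted p under 0.05, with 3 at an unadjusted p under 0.05.

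Change was also related to gene span, the distance from a gene's start to its end in the table. Over 11457 genes with a mean level above 100, Spearman's rho between span and change was -0.27, a description across genes, which are not independent. The median log2 change went from 0.35 in the shortest of 5 equal groups of genes (spans up to 6288 bases) through 0.18, 0.06 and -0.09 to -0.18 in the longest (65667 bases and more). Between PND2R libraries of the same treatment the same order was seen: the median of PND2R 2 and 3 minus PND2R 1 and 4 went from 0.38 in the shortest group to -0.21 in the longest, with a rho of -0.33. In the 9-library fit the medians went from 0.16 to -0.05 and rho was -0.13. Span stands beside the groups whose median moved towards 0 in the 9-library fit, basement membrane and respiratory chain genes among them. Its part in their changes was not tested.

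**Figure D4:**
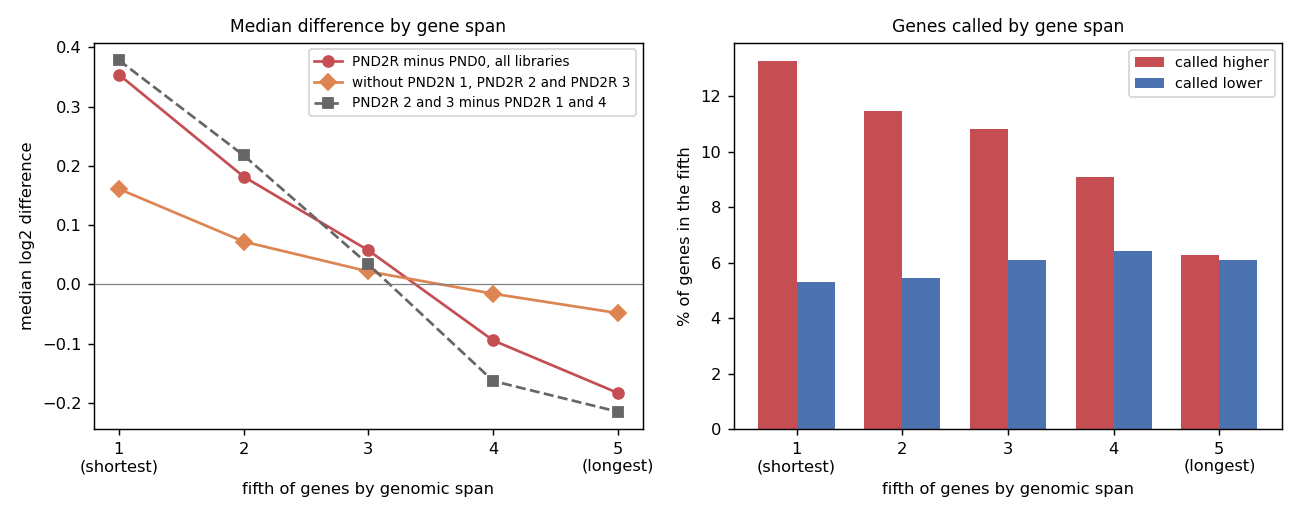
Genes with a mean level above 100 were divided into 5 equal groups by genomic span, shortest at left. The left panel gives the median log2 difference of each group for PND2R minus PND0 with all libraries, for the same in the 9-library fit, and for PND2R 2 and 3 minus PND2R 1 and 4; all 3 lines fall from left to right. The right panel gives the percentage of genes in each group that rose (13.3% to 6.28%) or fell (5.32% to 6.42%).

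Whether these day 2 levels were tied to the replacer was asked by the direct contrast of PND2R with PND2N, which shares no PND0 library. In it 2 of the 16523 genes (0.0121%) passed, and no gene with a symbol named above was among them. CXCL13, which read 1, 24.2, 9.41 and 10.04 in PND2N, had an adjusted p of 0.86 in that contrast, SAA3 (2.30, 8.85, 11.8 and 10.002 in PND2N) one of 0.665, and GRM7 (90.6, 256, 166 and 191 in PND2N) one of 0.511. For CXCL13 and SAA3 all PND2R values lay above all PND2N values, and for GRM7 all lay below. MMP7 read 393, 499, 491 and 866 in PND2N, above all PND2R values, and had an adjusted p of 1. A p above the threshold does not show that the levels were alike. The share of all genes without overlap between PND2R and PND2N was not counted. The lack of overlap in these genes, picked from many, therefore shows no difference by feeding. The genes that passed were LOC100518566 and LOC100514492. LOC100518566 (chr9:22290442-22297782), described as similar to transmembrane protein 126B, read 134, 59.2, 71.9 and 113 in PND0, 106, 44.6, 179 and 91.5 in PND2R and 3.63, 5.59, 7.65 and 3.35 in PND2N. LOC100514492 (chr13:65432520-65460967), of unknown function, read 24.9, 14.8, 29.3 and 30.5 in PND0, 76.05, 91.2, 73.5 and 67.1 in PND2R and 1, 1.27, 1 and 1.67 in PND2N. The PND2R minus PND2N differences were 4.03 and 5.13 (adjusted p = 0.00999 and 2.16e-05), and LOC100514492 also rose over PND0 (1.63 ± 0.32, SE; adjusted p = 0.0124; 1.53 and 0.0834 in the 9-library fit). In the same fit 559 genes (3.38%) passed for PND2N against PND0, a contrast that uses the same PND0 libraries.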

How the data were processed

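RNA from 12 whole uteri, 4 per group, was sequenced as poly(A) mRNA libraries, per the labels' protocols. The authors deposited 1 table of normalized signal values per gene, linear and never below 1; bcl2fastq and the pig build Sscrofa10.2 are named, per the submitters' processing notes, and how reads were aligned, counted and normalized is not given in the sources used here. Values are fractional and whole reads could not be recovered, so depth is unknown. Columns were matched to animals by the library numbers in the titles. Of 20390 entries, 14468 were found in the RefSeq gene table of another assembly (Sscrofa11.1), which was used for names only, and 13077 carried a symbol. Promoter and protein sequences were not used here.

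Values were tested as log2(value + 1), on which scale all changes are given and which understates the change of low genes, with limma 3.58.1 in R 4.3.3 (trended, robust empirical Bayes, two-sided), all 12 libraries in 1 fit, over 16862 genes above 1 in at least 4 of 12 libraries, with Benjamini-Hochberg adjustment over all of them and a threshold of 0.05. On simulated data of 16862 genes for the PND2R versus PND0 comparison, 55% of 100 genes changed by 1 and 99% of 100 changed by 2 on the log2 scale were recovered, with 3 false calls of 157. The simulated noise was drawn independently for each gene, so no library stood apart as in the data. The changed genes were drawn only from those with a higher level and a small spread. These shares therefore do not carry over to the calls made here. The rule kept 308 genes above 1 in exactly 4 of the 8 libraries (median of their highest value 5.04) and left out 328 above 1 in 3 (3.67). Genes were named by rule: the 15 largest rises and 15 largest falls without overlap and with a mean of at least 10 (27 of these 30 have a known function and are described), up to 4 genes of each list with the smallest p, and a uterine panel; a few of these genes are not reported here. Of the symbols on the gene lists, 1137 of 1413 list entries were found. Members and lists were chosen with earlier results of these data known. Alternatives varied the constant, the filter, the scaling, the variance model and the libraries.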

Additional observations from a re-analysis of the deposited data

Results flagged for a closer look

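The following results were set apart by 1 library or by feeding group. Chance alone sets apart about 1 group of 4 in 20 by the library criterion, a highest or lowest value far from the other 3. That rate cannot be relied on where values lie at or near the table's lowest, as for GREB1 in PND2R and BBOX1 and SLC39A12 in PND0. In PND2R, CXCL13 was highest in PND2R 2 (548), as was CDKN2C (2088), and WNT7A was lowest there (5359.7). GREB1 was highest of PND2R in PND2R 1 (2.22), and PIWIL2 and C14H10orf62, a gene of unknown function, in PND2R 4 (5.72 and 9.87). In PND0, BBOX1 was highest in PND0 1 (4.60), SLC16A3, the lactate exporter, in PND0 2 (2381), SLC39A12 in PND0 3 (8.35) and GREB1 in PND0 4 (77.5). LNPEP, an angiotensin IV-binding aminopeptidase, was lowest in PND0 2 (513) and the lactoferrin gene LTF in PND0 4 (22.0).

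The contrast of PND2R with PND2N set 2 genes apart: LOC100518566, with a difference of 4.03 (adjusted p = 0.00999, limma), and LOC100514492, with 5.13 (adjusted p = 2.16e-05), each higher in 4 of 4 PND2R libraries than in all PND2N libraries.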

How the results depend on the processing

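Leaving out PND2N 1, PND2R 2 and PND2R 3 together lowered the PND2R versus PND0 count from 2531 to 251 genes (105 higher, 146 lower). Leaving out 1 library at a time gave 549 to 4098 genes in all, 270 to 1835 higher and 270 to 2263 lower. A 2-fold threshold gave 1573, of which 615 were higher. The other alternatives (constant, filters, TMM, quantile normalization, plain empirical Bayes, library quality weights, the 8 libraries alone) gave 2152 to 2736. Quantile normalization moved the median change of all members by 0.10, and with it the medians of the metalloproteinase and angiotensin lists turned from -0.18 and -0.22 to 0.01 and 0.07. For PND2R versus PND2N the count of 2 became 6 with library quality weights, 4 without the 3 libraries and 1 to 3 without 1 library; with the 8 libraries of the birth comparison alone it has no value. Of 128 genes chosen by the naming rule that passed, 35 passed without the 3 libraries, 54 without PND2R 2, 54 without PND2R 3, 70 without PND0 4 and 117 with TMM, and none changed sign under any of these. PRLR, which did not pass, went from -0.22 to between -0.45 and 0.012 without 1 library, the last without PND0 replicate 4. The causes of these shifts were not tested. No paired analysis was possible because the labels give groups no shared replicate numbers: numbers were given in accession order. Values near 1 limit what can be said of BBOX1, GREB1, KLF9 and DNAI1, and the promoter motif description was not run.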

Other observations

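Some genes outside the lists, chosen here after their values were seen, passed with all libraries, in all 12 fits without 1 library and in the 9-library fit. ADD2, the beta subunit of the membrane skeleton protein adducin, read 864 to 1315 in PND0 and 110.1 to 149 in PND2R (-3.09 ± 0.25, SE; adjusted p = 0.000474; -3.29 and 0.00379 in the 9-library fit). CKS2, a small subunit that binds cyclin-dependent kinases, read 732 to 1058 in PND0 and 3112 to 4066 in PND2R (1.97 ± 0.18, SE; adjusted p = 0.000727; 1.89 and 0.0075 in the 9-library fit). DIO2, the deiodinase that makes active thyroid hormone inside cells, read 67.8 to 101 in PND0 and 193 to 658 in PND2R (2.19 ± 0.39, SE; adjusted p = 0.00937; 1.61 and 0.0438 in the 9-library fit). CXCR4, the receptor of CXCL12, read 569 to 799.6 in PND0 and 1218 to 1962 in PND2R (1.32 ± 0.20, SE; adjusted p = 0.00614; 1.56 and 0.0244 in the 9-library fit). LHX4, a LIM homeobox gene, read 11.1 to 35.1 in PND0 and 1 to 1.91 in PND2R (-3.30 ± 0.39, SE; adjusted p = 0.00391; -3.16 and 0.0331 in the 9-library fit), and RUNX2, a transcription factor of mesenchyme, 148 to 173 in PND0 and 38.2 to 61.3 in PND2R (-1.62 ± 0.27, SE; adjusted p = 0.00724; -1.39 and 0.0406 in the 9-library fit).

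More genes of motile cilia, also chosen after their values were seen, were high in PND2R 1 and 4. Of PND2R, the 9-library fit keeps only these libraries. Its result for genes chosen as high there was largely fixed by the choice and is no support. ZMYND10, which assembles dynein arms, read 43.7, 40.4, 26.3 and 29.5 in PND0 and 138, 80.9, 52.6 and 119 in PND2R and rose (1.39 ± 0.36, SE; adjusted p = 0.0275; 1.88 and 0.0406 in the 9-library fit). CFAP161, an axonemal protein, read 2.30, 7.78, 6.07 and 2.95 in PND0 and 42.1, 8.85, 2.20 and 34.3 in PND2R. PND2R 2 and 3 thus lay near PND0, and the gene did not pass with all libraries (adjusted p = 0.158, change 2.87 in the 9-library fit). ARMC3 read 1, 1, 2.34 and 1 in PND0 and 17.5, 1.77, 1 and 17.9 in PND2R. PND2R 2 and 3 were again near the table's lowest value, and ARMC3 did not pass with all libraries (adjusted p = 0.152, change 3.04 in the 9-library fit). FAM183A read 4.55, 4.30, 11.1 and 4.65 in PND0 and 51.7, 1.49, 95.9 and 59.3 in PND2R. PND2R 2 was the exception, and FAM183A did not pass with all libraries (adjusted p = 0.136, change 3.07 in the 9-library fit).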
